A study of Mus musculus with 8 samples.

Results

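A set of 6 genes that mark the thalamus and the habenula, brain regions that lie close beneath the hippocampus, was followed here in hippocampal RNA of SCID mice. They were Tcf7l2, Tnnt1, Ramp3, Zic1, Prkcd and Calb2, and each probe set annotated to 1 of these symbols alone was taken, which gave 9 probe sets for 6 genes, of 20380 probe sets for 12393 genes in all. Tcf7l2 had 4 probe sets and the other genes 1 each. The genes were chosen by their measured spread between mice and their FTY720 minus vehicle differences on these same arrays, so their group differences are given as a description, with standard errors (SE) and without a test.

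The study set 4 FTY720 mice, numbered 1, 4, 5 and 6, against 4 vehicle mice, numbered 13 to 16. FTY720 mice received the drug by mouth in saline at 1 mg/kg on 3 days, and vehicle mice received saline alone on 3 days. All were male SCID mice aged 12 weeks, which lack mature B and T lymphocytes whatever the treatment, and all went through contextual fear conditioning. Tissue collection followed the last dose by 17 hours and the consolidation test by 1 hour, and each hippocampus was read on 1 Affymetrix 3' array. FTY720 (fingolimod) is a sphingosine analogue that acts, once phosphorylated, on sphingosine-1-phosphate receptors.

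The thalamus relays sensory and other signals to the cortex, and the habenula passes forebrain signals to midbrain and brainstem centres. Relay neurons of the thalamus are glutamatergic and use a vesicular glutamate transporter, Slc17a6, that most hippocampal neurons use little. Tcf7l2 encodes a high-mobility-group transcription factor of the Wnt and beta-catenin pathway that sets the identity of thalamic and habenular neurons and keeps high levels there in adult mice. None of the 6 genes is exclusive to these regions. Tcf7l2 is also found in maturing oligodendrocytes, Calb2 in hippocampal interneurons and mossy cells, and Zic1 in septum, cerebellum and meninges. In a whole-tissue sample, fewer cells of a type and less RNA per cell cannot be told apart.

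The arrays were alike as a whole, with array medians between 6.75 and 6.79 on the log2 scale. Vehicle 15 stood apart in the results below, and its median correlation with the rest was 0.994, where the others had 0.995 to 0.997. Of 10 measured hippocampal markers 7 lay above the median level of all genes, among them Neurod6, Zbtb20 and Wfs1, while Prox1, the granule cell factor, was dim (mean level 3.29). The 5' minus 3' difference of the Gapdh control probe sets, a measure of RNA integrity, was -1.08 to -0.80 in FTY720 mice and -1.46 to -1.07 in vehicle mice. Vehicle 15 stood at -1.07 and vehicle 16 at -1.46. The part of RNA integrity in the differences below was not tested.

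The DNA just before the transcription starts is shown for Tcf7l2 and Prkcd, which have more than 1 start, and for Tnnt1. Tnnt1 and Prkcd were the pair of genes most alike from mouse to mouse. Whether the starts of Tcf7l2 bear on the differences between its probe sets was not tested. Sequences are from RefSeq on build GRCm38.p6, the 250 bases before the start, written 5' to 3' in the direction of the gene. Capitals mark 2 motifs, searched for on both strands. One is TATAAA, the core of the TATA box found before many transcription starts, which reads TTTATA when it lies on the opposite strand. The other is CTTTGA, the core bound by Tcf7l2 and its relatives, which reads TCAAAG when it lies on the opposite strand. The upstream start of Tcf7l2 lies after chr19:55741560-55741809 (+ strand) and a second, downstream start after chr19:55895071-55895320 (+ strand). The windows of Tnnt1 and of 1 start of Prkcd are chr7:4515976-4516225 (- strand) and chr14:30626209-30626458 (- strand).
Tcf7l2, upstream start: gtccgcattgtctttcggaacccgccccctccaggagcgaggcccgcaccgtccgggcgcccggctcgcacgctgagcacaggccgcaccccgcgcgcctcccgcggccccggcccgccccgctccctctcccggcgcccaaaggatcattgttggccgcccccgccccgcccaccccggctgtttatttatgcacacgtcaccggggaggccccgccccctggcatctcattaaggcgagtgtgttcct
Tcf7l2, second start: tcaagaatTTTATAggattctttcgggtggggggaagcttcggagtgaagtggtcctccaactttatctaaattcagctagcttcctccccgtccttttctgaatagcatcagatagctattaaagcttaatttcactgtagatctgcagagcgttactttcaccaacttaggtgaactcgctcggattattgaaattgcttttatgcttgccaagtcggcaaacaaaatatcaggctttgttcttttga
Tnnt1: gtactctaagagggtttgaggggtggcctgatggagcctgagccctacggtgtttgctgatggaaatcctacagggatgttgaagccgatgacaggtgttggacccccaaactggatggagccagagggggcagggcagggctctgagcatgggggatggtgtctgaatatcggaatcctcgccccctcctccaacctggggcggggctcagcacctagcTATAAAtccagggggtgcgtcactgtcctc
Prkcd: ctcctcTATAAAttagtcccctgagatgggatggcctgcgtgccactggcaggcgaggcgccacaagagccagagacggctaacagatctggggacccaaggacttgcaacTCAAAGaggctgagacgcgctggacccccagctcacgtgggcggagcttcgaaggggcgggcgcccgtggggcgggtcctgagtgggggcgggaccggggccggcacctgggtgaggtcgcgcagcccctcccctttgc

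The windows of Tcf7l2 differed in composition, with 72.8% G and C before the upstream start and 40.8% before the second. In Tnnt1 the TATAAA began 30 bases before the start. In the Prkcd window shown it began 244 bases before the start, and the only CTTTGA among all the windows began 139 bases before that start. The other window of Prkcd, chr14:30610311-30610560 (- strand), held neither motif. The RefSeq table used here gave 7 windows for 5 of the 6 genes, with Tcf7l2 and Prkcd at 2 each, and no window of Calb2 was analysed here. CTTTGA was found in 1 of these 7 windows and in 13.8% of all 32851 windows of this length, and TATAAA in 3 of 7 and in 12.4% of all. The 2 motifs share no position. A match here describes the letters of a window and says nothing of binding.

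Tcf7l2 had the largest group difference of the 6 genes. Its brightest probe set, 1429428_at, read 6.30, 6.03, 6.10 and 5.91 in FTY720 mice 1, 4, 5 and 6, against 7.07, 7.61, 9.23 and 6.19 in vehicle mice 13, 14, 15 and 16. The FTY720 mice lay close together, 3 vehicle mice lay above all of them, and vehicle 16 lay below FTY720 1, so the groups overlapped. Group means were 6.08 ± 0.16 in FTY720 mice and 7.53 ± 1.28 in vehicle mice (SD, n = 4 each), a log2 difference of -1.44 (SE 0.50), or 0.368 times the vehicle level. Without vehicle 15 the difference was -0.87 (SE 0.27), and without vehicle 15 and 16 it was -1.26 (SE 0.15).

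The other probe sets of Tcf7l2 split into 2 kinds. Probe set 1429427_s_at read 4.20, 3.68, 4.09 and 3.57 in FTY720 mice, against 4.94, 4.82, 6.88 and 4.16 in vehicle mice, and the groups differed by -1.31 (SE 0.47). It followed the brightest set, with vehicle 15 highest and vehicle 16 among the FTY720 mice. Probe set 1425229_a_at differed by -0.48 (SE 0.20), with 4.69 to 5.22 in FTY720 mice and 5.04 to 6.03 in vehicle mice. Probe set 1426639_a_at differed by -0.16 (SE 0.11), with 4.57 to 5.09 in FTY720 mice and 4.99 to 5.26 in vehicle mice. Vehicle 15 was the highest mouse in all 4 probe sets, but exceeded the next mouse by 1.61 in 1429428_at and 1.94 in 1429427_s_at, against 0.39 in 1425229_a_at and 0.17 in 1426639_a_at. All 3 further sets were dim, between the 17.6th and the 27.4th percentile of mean levels. Which transcripts each set detects was not resolved here.

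**Figure D1:**
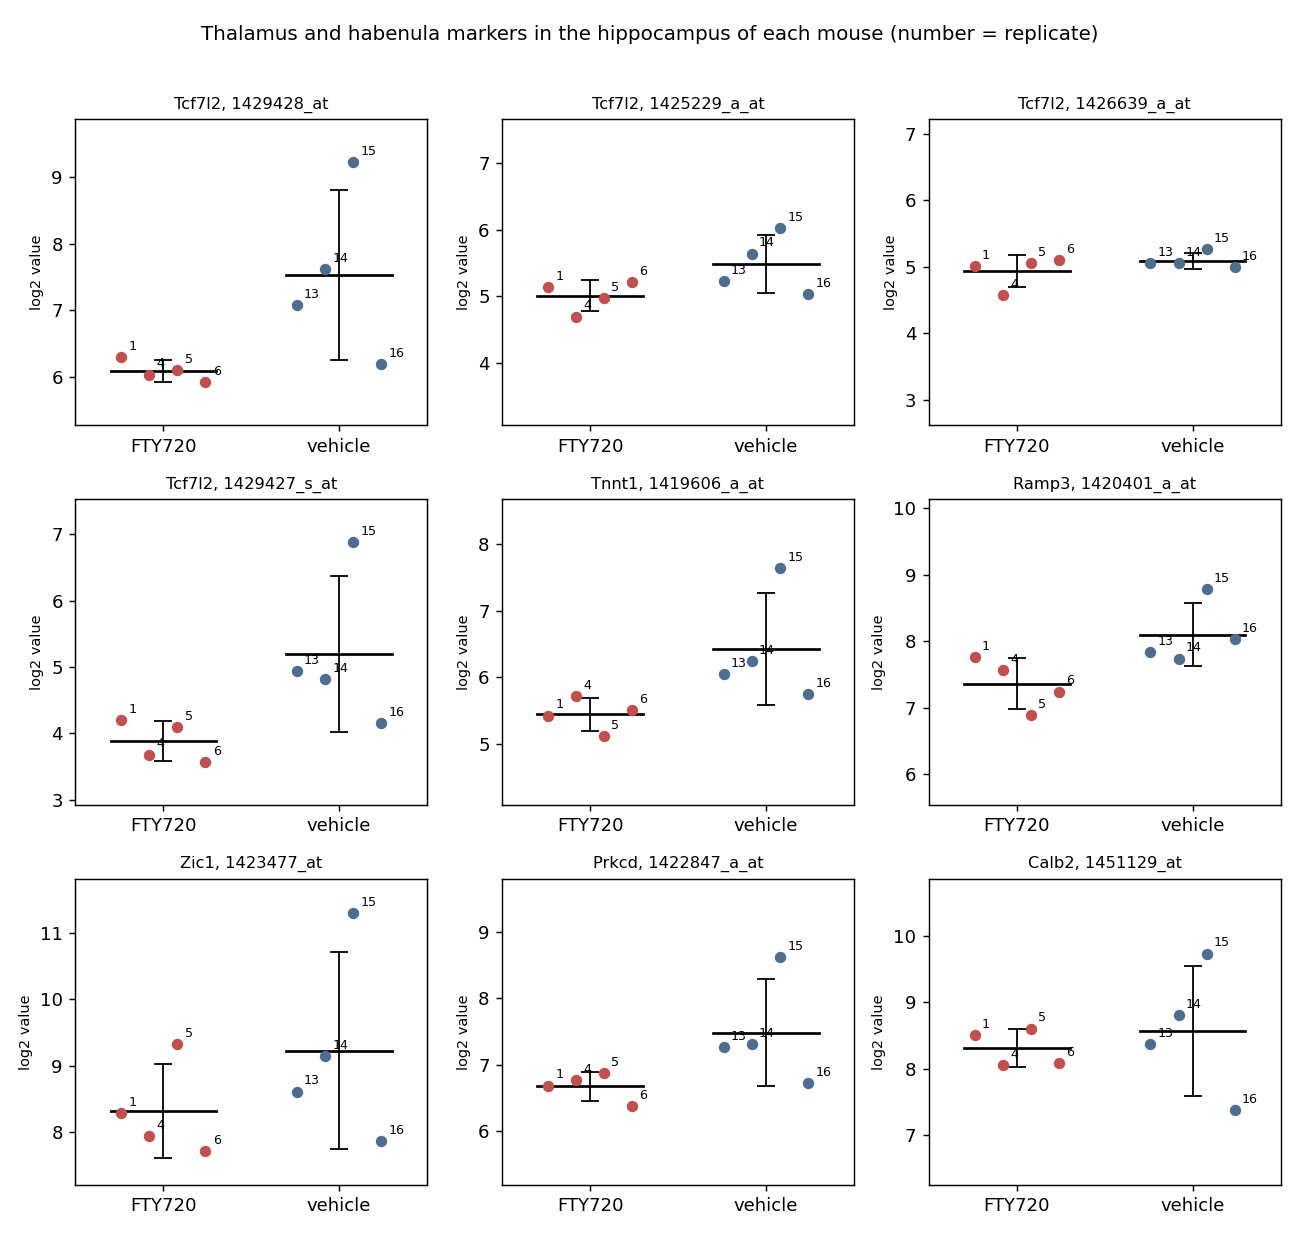
Log2 value of each of the 9 probe sets (y axis, 1 panel per probe set, all panels spanning the same number of log2 units) in FTY720 and vehicle mice (x axis); points are mice with their replicate numbers, lines are group means and bars the SD (n = 4). Vehicle 15 is the highest point in every panel, and vehicle 16 is the lowest vehicle point in every panel except that of Ramp3.

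Zic1, a zinc-finger transcription factor of dorsal neural tissue, varied most of the 6 genes. It read 8.29, 7.94, 9.32 and 7.72 in FTY720 mice, against 8.61, 9.14, 11.30 and 7.86 in vehicle mice. Vehicle 15 stood 1.98 above the next mouse, which was FTY720 5, and the groups overlapped widely. Means were 8.32 ± 0.71 in FTY720 mice and 9.23 ± 1.48 in vehicle mice (SD, n = 4 each), a difference of -0.91 (SE 0.64). That difference was -0.22 (SE 0.39) without vehicle 15 and -0.56 (SE 0.40) without vehicle 15 and 16. Zic1 also had the widest range within the FTY720 group, 1.60, against 0.38 for Tcf7l2.

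Ramp3 encodes an accessory membrane protein that pairs with the calcitonin receptor-like receptor to form an adrenomedullin receptor. It read 7.76, 7.56, 6.88 and 7.24 in FTY720 mice, against 7.84, 7.74, 8.79 and 8.04 in vehicle mice. All vehicle mice lay above 3 of the FTY720 mice, and vehicle 14 fell just below FTY720 1, the 1 overlap. Vehicle 16 was second highest after vehicle 15, which held for no other of the 6 genes. The difference was -0.74 (SE 0.24), from 7.36 ± 0.38 in FTY720 mice and 8.10 ± 0.48 in vehicle mice (SD, n = 4 each), and it was -0.51 (SE 0.18) without vehicle 15 and -0.43 (SE 0.21) without vehicle 15 and 16.

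Prkcd encodes protein kinase C delta, an isoform activated by diacylglycerol without calcium. It read 6.68, 6.77, 6.87 and 6.37 in FTY720 mice, against 7.26, 7.31, 8.61 and 6.73 in vehicle mice. As for Tcf7l2, vehicle 13, 14 and 15 lay above every FTY720 mouse and vehicle 16 lay among them. The difference was -0.81 (SE 0.33), from 6.67 ± 0.22 in FTY720 mice and 7.48 ± 0.80 in vehicle mice (SD, n = 4 each), and it was -0.43 (SE 0.16) without vehicle 15 and -0.61 (SE 0.13) without vehicle 15 and 16.

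Tnnt1 encodes the troponin T of slow skeletal muscle, and its RNA is a known mark of thalamic neurons in mouse brain. It read 5.42, 5.72, 5.12 and 5.51 in FTY720 mice, against 6.05, 6.24, 7.64 and 5.74 in vehicle mice. This was the only 1 of the 6 genes whose groups did not overlap, and FTY720 4 and vehicle 16 nearly met. Values of all FTY720 mice lay below those of all vehicle mice in 1.78% of the 12393 genes. The difference was -0.98 (SE 0.34), from 5.44 ± 0.25 in FTY720 mice and 6.42 ± 0.84 in vehicle mice (SD, n = 4 each). It was -0.57 (SE 0.15) without vehicle 15, where 3.71% of all genes separated this way, and -0.71 (SE 0.15) without vehicle 15 and 16.

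Calb2 encodes calretinin, a calcium-binding protein. It read 8.50, 8.05, 8.61 and 8.08 in FTY720 mice, against 8.37, 8.80, 9.73 and 7.38 in vehicle mice. The vehicle mice spanned the whole range of the 8, with vehicle 15 highest and vehicle 16 lowest. The difference was -0.26 (SE 0.40), from 8.31 ± 0.28 in FTY720 mice and 8.57 ± 0.98 in vehicle mice (SD, n = 4 each). Its sign turned without vehicle 15, to 0.13 (SE 0.30), while without vehicle 16 it was -0.66 (SE 0.29) and without both -0.28 (SE 0.19). Some hippocampal interneurons also hold calretinin. The list of 10 interneuron markers, which is not specific to calretinin cells, had its lowest mean in vehicle 15 (-0.23 relative to the mean of the 8 mice). Calb2 was highest in that mouse. The part of interneurons or mossy cells in the Calb2 values was not tested.

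Compared with each other, the 6 genes shared their highest mouse and differed in the order of the rest. Vehicle 15 was the highest mouse in 6 of 6, as it was in 17.1% of all genes, and it exceeded the mean of the other 7 mice by 1.21 (Ramp3) to 2.89 (Zic1). The second highest was vehicle 14 for Tcf7l2, Tnnt1, Prkcd and Calb2, FTY720 5 for Zic1 and vehicle 16 for Ramp3. The lowest was FTY720 6 for Tcf7l2, Zic1 and Prkcd, FTY720 5 for Tnnt1 and Ramp3, and vehicle 16 for Calb2. Likeness of patterns was measured as the root mean square difference of the log2 values of 2 genes over the 8 mice, each gene centred on its own mean. It was smallest for Tnnt1 and Prkcd (0.26) and largest for Ramp3 and Zic1 (0.92). Without vehicle 15, Tnnt1 and Prkcd stood at 0.27, Tcf7l2 and Prkcd at 0.34 and Ramp3 and Zic1 at 0.79.

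The spread between mice was large for each gene. The SD over the 8 mice was 0.56 (Ramp3) to 1.18 (Zic1), where the median of all genes was 0.10, and lay between the 99.6th and the 99.95th percentile of all probe sets. Without vehicle 15 it was 0.33 (Prkcd) to 0.64 (Zic1), still at the 99.1st percentile or above. Within the FTY720 mice alone the SD of Tcf7l2, 0.16, lay at the 87.1st percentile and that of Zic1, 0.71, at the 99.9th. The genes were chosen with this spread in view, so these ranks describe them and are no evidence.

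**Figure D2:**
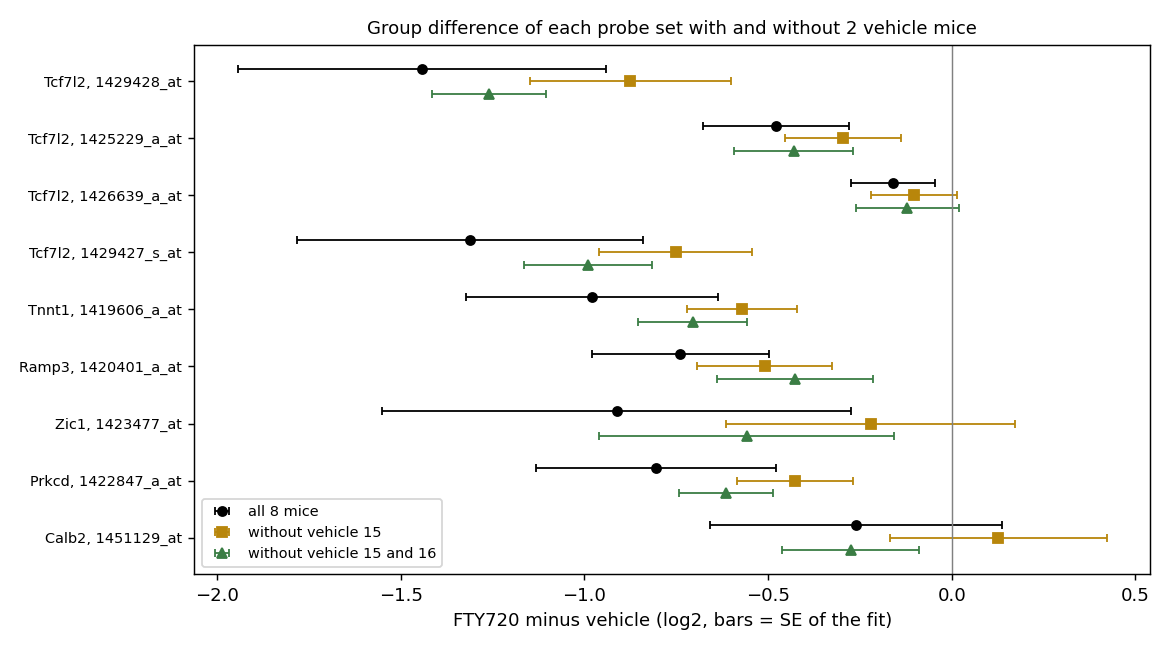
FTY720 minus vehicle on the log2 scale (x axis) for each of the 9 probe sets (y axis), with all 8 mice, without vehicle 15 and without vehicle 15 and 16; bars are SE of the fit. All 9 lie below 0 with all mice, and Calb2 lies at 0.13 without vehicle 15.

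The comparison of FTY720 with vehicle addresses the effect of the drug on hippocampal RNA in fear-conditioned mice. Over all 20380 probe sets, limma called 0 at an adjusted p of 0.05 (0%), with a lowest adjusted p of 0.433, and 1375 (6.75%) had an unadjusted p under 0.05. Mean levels were lower in FTY720 mice for 6 of 6 genes, against 46.5% of all genes, and for 5 of 6 without vehicle 15, against 48.9% of all genes. The median difference of the 6 was -0.86, or -0.47 without vehicle 15, where that of all genes was 0.007 and 0.002. As the genes were proposed from this comparison, nothing is read from these counts.

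A wider list of 24 further genes known from thalamus or habenula was compared with the 6. Of these, 16 had a probe set of their own, 11 from the thalamus and 5 from the habenula. None passed adjustment in either direction. At an unadjusted p under 0.05, 2 of the 16 were lower in FTY720 mice, where this holds for 2.70% of all genes, and 0 were higher, where it holds for 3.56%. Mean levels were lower in 15 of 16 with all mice and in 11 of 16 without vehicle 15, and the median difference was -0.14 and -0.05. Vehicle 15 was the highest mouse in 12 of the 16.

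Among the thalamic genes Gbx2, a homeobox factor of developing thalamus, had the largest difference. Gbx2 read 3.78, 3.90, 3.94 and 3.82 in FTY720 mice, against 4.25, 5.13, 5.75 and 3.95 in vehicle mice, with a difference of -0.91 (SE 0.32), or -0.58 without vehicle 15. The groups did not overlap, vehicle 16 lay just above the FTY720 mice, and the gene was dim, below the lower quartile of levels (5.35). Rora, a nuclear receptor of thalamic and other neurons, read 8.73, 8.73, 8.61 and 8.55 in FTY720 mice, against 9.11, 8.97, 9.42 and 8.84 in vehicle mice. In this brightest probe set its groups did not overlap either, and its difference was -0.43 (SE 0.11), or -0.32 without vehicle 15. The dimmer probe sets of Rora differed by less, -0.20 (SE 0.13) and -0.20 (SE 0.098), and their groups overlapped. All FTY720 mice lay below all vehicle mice in 2 of the 16 list genes, by brightest probe set, and in 1.78% of all genes. Slc17a6, the transporter of thalamic relay neurons named above, read 8.71, 8.90, 8.52 and 8.58 in FTY720 mice, against 9.07, 9.04, 10.45 and 8.47 in vehicle mice. Vehicle 16 was its lowest mouse, and its difference was -0.58 (SE 0.34), or -0.18 without vehicle 15.

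The remaining thalamic genes, Foxp2, Zic4, Rgs16, Adarb1, Lhx9, Lef1, Ntng1 and Synpo2, differed by -0.28 to 0.02, and all but Lef1 were highest in vehicle 15. Of the 5 habenular genes, 2 were highest in vehicle 15. Tac2, the neurokinin B precursor, read 5.80 to 6.12 in FTY720 mice and 5.77, 6.32, 7.96 and 5.86 in vehicle mice 13 to 16, a difference of -0.52 (SE 0.40), or -0.03 without vehicle 15. Chrna3, a nicotinic receptor subunit of the medial habenula, differed by -0.12 (SE 0.13) and was also highest in vehicle 15. Slc5a7, the choline transporter, differed by -0.15 (SE 0.11), and with Chrnb3 and Chrnb4 it was below the lower quartile of levels and not highest in vehicle 15. Of the habenular list, Pou4f1, Gpr151, Nwd2, Chat and Gng8 had no probe set of their own, so the name habenula rests on few genes here.

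**Figure D3:**
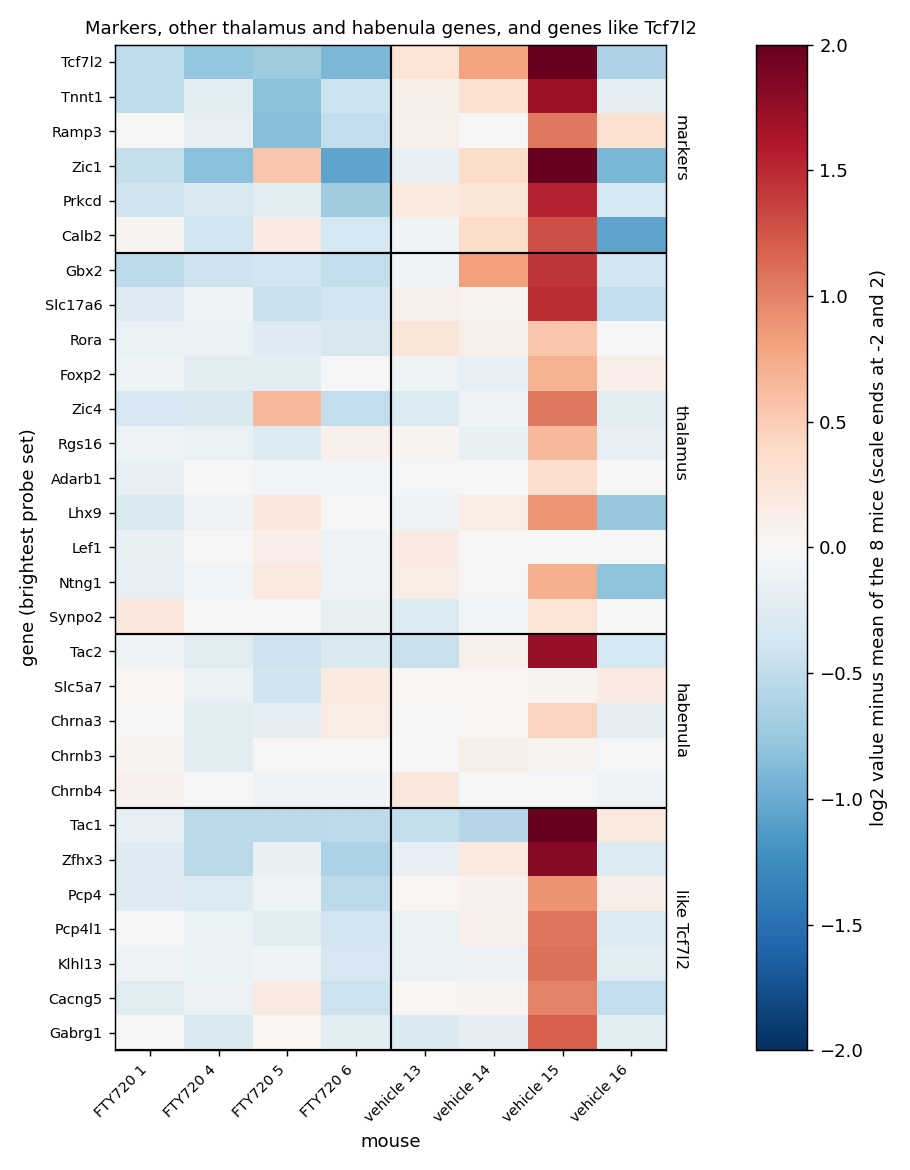
Log2 value minus the mean of the 8 mice (colour) for the 6 markers, the other thalamus and habenula genes and genes like Tcf7l2 (rows, brightest probe set of each gene) in the 8 mice (columns, FTY720 left of the line). Vehicle 15 is the highest mouse in all 6 markers and in 12 of the 16 list genes. The FTY720 5 column is above the gene mean for Zic1, Zic4, Calb2, Lhx9 and Ntng1, among other rows.

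Close relatives and partners of the 6 genes were compared next, 21 of 24 listed genes with a probe set of their own. Their median difference was -0.04, with 11 lower and 10 higher in FTY720 mice, 0 past adjustment and 0 at an unadjusted p under 0.05. In their brightest probe sets, measured relatives of Zic1 had its order of high mice. Zic2 read 4.85, 4.59, 5.29 and 4.66 in FTY720 mice, against 4.85, 4.93, 6.22 and 4.93 in vehicle mice, and Zic5 read 6.47, 6.37, 7.01 and 6.19 in FTY720 mice, against 6.44, 6.61, 8.14 and 6.32 in vehicle mice. As for Zic1, vehicle 15 was highest and FTY720 5 second in both, and in Zic4, which the thalamic list holds too. This order was not particular to the Zic genes, as Lhx9 and Ntng1 of the thalamic list had it too. Ramp2, the partner of the same receptor in vessels, ran the other way, at 8.08, 8.06, 8.03 and 8.17 in FTY720 mice, against 7.95, 8.05, 7.47 and 7.89 in vehicle mice. It was lowest in vehicle 15, with a difference of 0.25 (SE 0.11), or 0.12 without vehicle 15. Tcf7l1, a measured relative of Tcf7l2, differed by 0.02 (SE 0.07), and Calb1, the calbindin of hippocampal granule cells, by -0.07 (SE 0.09).

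Markers of other regions and cells were summarised as list means, each gene centred on its mean over the 8 mice. For the 6 markers the list mean ran from -0.65 to -0.30 in FTY720 mice and from -0.47 to 1.76 in vehicle mice, with vehicle 15 at 1.76 and the next mouse, vehicle 14, at 0.35. The 11 thalamic genes ran from -0.18 to -0.04 in FTY720 mice and from -0.25 to 0.73 in vehicle mice, again with vehicle 15 on top. The 5 habenular genes ran from -0.21 to 0.02 in FTY720 mice and from -0.11 to 0.46 in vehicle mice. In all 3 lists vehicle 16 lay within or below the range of the FTY720 mice.

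Lists for 2 neighbouring tissues also peaked in vehicle 15. Striatal markers ran from -0.35 to -0.21 in FTY720 mice and from -0.31 to 1.44 in vehicle mice, and vehicle 15 was highest in 9 of 9 genes, Penk at 11.39, Tac1 at 12.52 and Six3 among them. Unlike the thalamic genes, they were second highest in vehicle 16 as a list (0.30), and vehicle 13 and 14 lay within the FTY720 range. Choroid plexus markers ran from -1.35 to 0.97 in FTY720 mice and from -0.98 to 1.49 in vehicle mice, and vehicle 15 was highest in 8 of 8, among them Ttr, Folr1 and Otx2. FTY720 5, the mouse second highest in Zic1, stood at 0.65 for choroid plexus and FTY720 1 at 0.97, where Zic1 read 9.32 and 8.29. Vehicle 14 and 13 stood at 0.84 and -0.38 for choroid plexus, where Zic1 read 9.14 and 8.61. FTY720 4, FTY720 6 and vehicle 16 were lowest in both, at -1.24, -1.35 and -0.98 for choroid plexus. Zic1 read 7.94, 7.72 and 7.86 in them. Calb2, also highest in vehicle 15, read 8.50, 8.61 and 8.80 in FTY720 1, FTY720 5 and vehicle 14, the other mice above 0 for choroid plexus. It read 7.38 to 8.37 in the mice below 0. The part of neighbouring tissue in the group differences of the 6 genes was not tested.

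The list mean of the relatives and partners was highest in vehicle 15, at 0.14, with at most 0.02 in the other mice. Among those 21 genes vehicle 15 was highest in 7 and lowest in 7, where this holds for 17.1% and 23.6% of all genes. The remaining lists did not peak in vehicle 15. Oligodendrocyte markers ran from -0.28 to -0.07 in FTY720 mice and from -0.04 to 0.32 in vehicle mice, and vehicle 15 was highest in 0 of 11. At an unadjusted p under 0.05, 10 of the 11 were lower in FTY720 mice, where this holds for 2.70% of all genes, and 0 passed adjustment. Of the 11, 6 were highest in vehicle 16, Mog, Ugt8a and Cldn11 among them, and 5 in vehicle 14. Tcf7l2 was low in vehicle 16 and second highest in vehicle 14. The part of oligodendrocytes in the Tcf7l2 values was not tested. Neocortical markers stood at -0.23 in vehicle 15 and 0.37 in vehicle 16, with -0.09 to -0.01 in FTY720 mice. Of these, Fezf2 was lowest in vehicle 15 (7.31), and Lamp5 and Krt12 were highest in vehicle 16 (10.57 and 8.19). Hippocampal markers ran from -0.12 to 0.24 in FTY720 mice and from -0.28 to 0.30 in vehicle mice, with vehicle 15 at -0.22, and vehicle 15 was lowest for Pou3f1 (8.49), highest for Bok (9.46) and at 7.68 for Lct. Interneuron markers ran from 0.03 to 0.11 in FTY720 mice and from -0.23 to 0.07 in vehicle mice, with Kit and Vip lowest in vehicle 15 (7.46 and 8.13) and Reln lowest in vehicle 16. At an unadjusted p under 0.05, 4 of the 10 were higher in FTY720 mice, where this holds for 3.56% of all genes, and 0 passed adjustment.

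**Figure D4:**
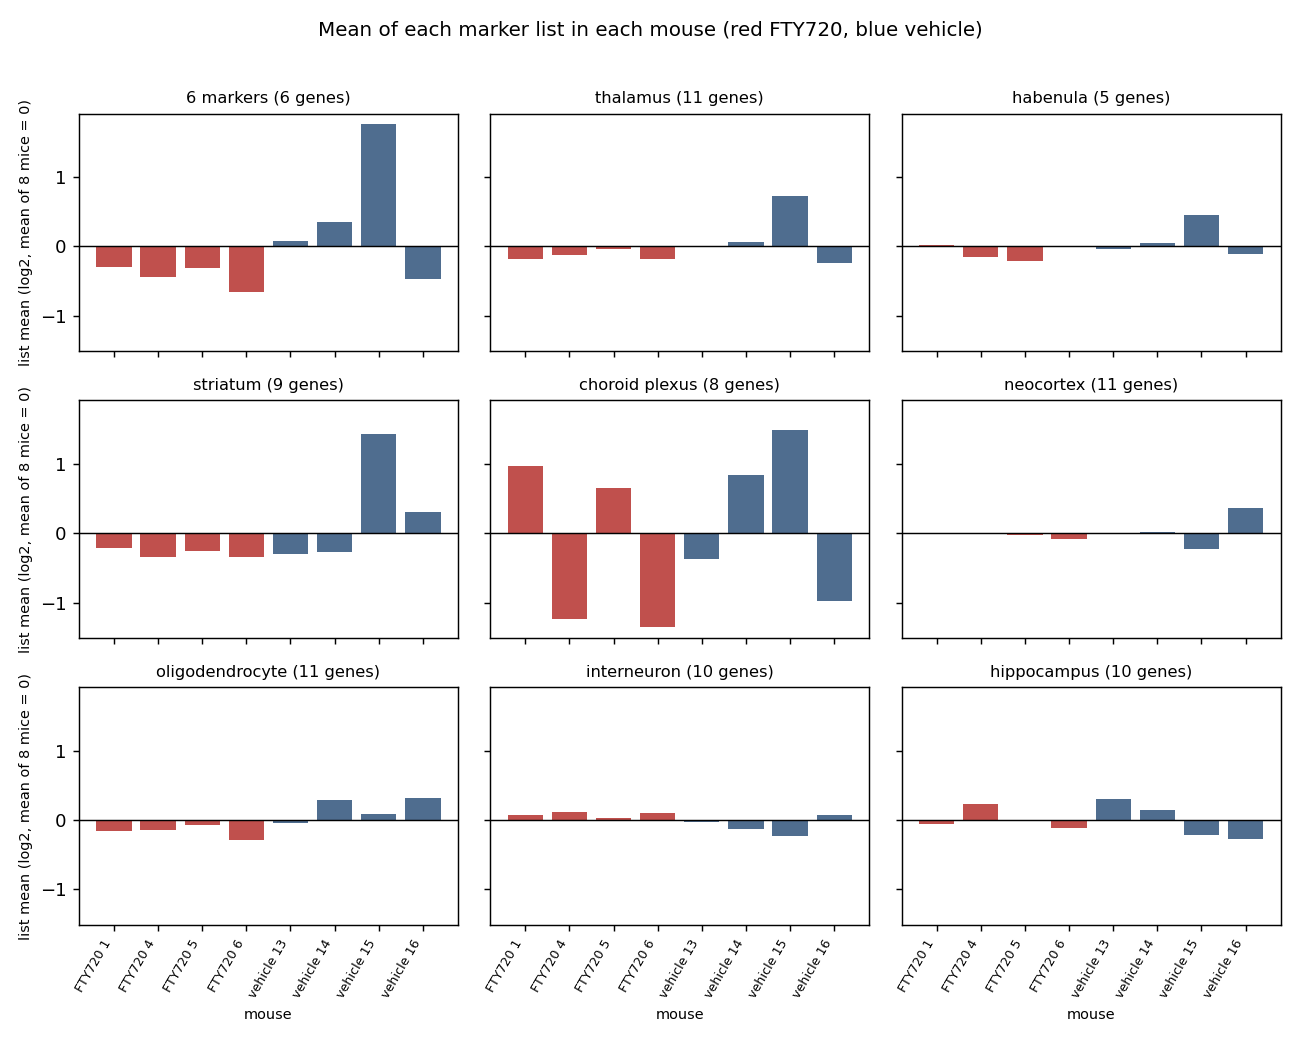
Mean of each marker list in each mouse (y axis, log2, each gene centred on its mean over the 8 mice; x axis, mice with FTY720 left in red and vehicle right in blue). Vehicle 15 is highest for the 6 markers (1.76), thalamus (0.73), habenula (0.46), striatum (1.44) and choroid plexus (1.49), and below 0 for neocortex, interneurons and hippocampus.

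The genes most like Tcf7l2 were sought among the 6193 other genes above the median level, by the root mean square difference from its brightest probe set over the 8 mice. The 8 nearest were Zfhx3 (0.44), Slc17a6 (0.54), Tac1 (0.67), Pcp4l1 (0.69), Cacng5 (0.72), Klhl13 (0.72), Pcp4 (0.73) and Gabrg1 (0.75), where the median of the compared genes was 1.08. Zfhx3, a zinc-finger homeobox factor, read 7.05, 6.77, 7.15 and 6.67 in FTY720 mice, against 7.14, 7.51, 9.12 and 7.04 in vehicle mice, so that, as for Tcf7l2, vehicle 14 was second to vehicle 15 and FTY720 6 was lowest. The profile of Tcf7l2 is dominated by vehicle 15, so the choice of genes like it favours a peak in that mouse, which exceeded the next by 0.78 (Pcp4) to 2.45 (Tac1). Pcp4, a calmodulin regulator, was the only 1 of the 8 whose groups did not overlap, at 11.45 to 11.87 in FTY720 mice and 12.01 to 12.86 in vehicle mice. All FTY720 mice lay below all vehicle mice in 1.78% of all genes. The choice by likeness to Tcf7l2, which was lower in FTY720 mice, bears on this count, so nothing is read from it. When vehicle 15 was left out of the profiles, only Zfhx3 and Slc17a6 stayed among the 8 nearest.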

How the data were processed

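Hippocampal RNA of 8 mice was measured on 1 Affymetrix array each, with biotin-labelled cRNA made, per the labels' protocols, from 100 ng of RNA. The deposited values are log2 expression values for each probe set, as judged from their range. The submitters' processing notes name Affymetrix Expression Console, MAS5 and RMA without versions, and do not state which made the deposited log2 values. No scan date or batch was given, and arrays have no read depth, so the number of mice limits the precision.

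The deposited values were used without further normalization. Probe sets with 1 gene symbol in the platform annotation were kept and control probe sets left out. Of 20380 probe sets, 20351 matched a RefSeq gene by Entrez ID, and 0 symbols changed. A gene was represented by its brightest probe set, by mean over the 8 mice. limma 3.58.1 in R 4.3.3 fitted the 2 groups over all probe sets, with Benjamini-Hochberg adjustment. Each SE is limma's moderated SE, whose variance is drawn toward that of all probe sets. Each p-value sets a group difference against that SE, with separate mice as the units. The code was checked on simulated data. Other genes named are, from each marker list, the 3 measured genes with the largest difference in either direction, and the 8 genes most like Tcf7l2. Foxp2, Zic4, Rgs16, Adarb1, Lhx9, Lef1, Ntng1, Synpo2, Chrnb3, Chrnb4, Tcf7l1, Calb1, Neurod6, Zbtb20, Wfs1 and Prox1 were chosen after their values were seen. The 6 markers and the gene lists were chosen with earlier results of these data known. Alternatives were quantile normalization, centring on brighter probe sets, removal of dim probe sets, the mean of all probe sets of a gene, a trended robust variance, leaving out each mouse in turn, and leaving out vehicle 15 and 16.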

Additional observations from a re-analysis of the deposited data

Results flagged for a closer look

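Within each group of 4 mice, the highest or lowest mouse was set against the others by Dixon's test, which chance passes in about 1 group in 20. Of 106 groups checked, 12 held a mouse this far from the rest, 6 of them vehicle 15. That rate does not apply to these counts, since the genes checked were picked for their spread, for large differences or for likeness to Tcf7l2, and Klhl13, Pcp4 and Gabrg1 came from the last of these. The only one among the 6 markers was the dim Tcf7l2 probe set 1426639_a_at, where FTY720 4 read 4.57 and the next mouse 5.01.

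Vehicle 15 stood above the other vehicle mice for Zic2 (6.22), Zic5 (8.14), Klhl13 (10.14), Pcp4 (12.86) and Gabrg1 (9.32), and below them for Pou3f1 (8.49). Vehicle 16 stood above the other vehicle mice for Slc5a7 (4.27) and Lamp5 (10.57). Among FTY720 mice, FTY720 1 stood high for Tac1 (9.72), FTY720 6 low for Lamp5 (9.05) and FTY720 5 low for Vip (8.86).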

How the results depend on the processing

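No paired analysis was possible because the replicate numbers of FTY720 and vehicle mice differ. Of 533 alternative values, 523 were counted as the same, 4 as moved and 6 changed sign, and 0 probe sets passed adjustment under any of the 14 settings tried. A gene's difference counted as the same if it kept its sign and shifted by less than a margin based on its SD within the groups. Vehicle 15 widens that margin, so large shifts can count as the same. Without vehicle 15, Zic1 went from -0.91 to -0.22 and Tac2 from -0.52 to -0.03, and both were counted so. Leaving out 1 mouse at a time gave 0 to 0 calls, and differences of -1.89 to -0.87 for Tcf7l2, -1.20 to -0.57 for Tnnt1, -0.87 to -0.51 for Ramp3, -1.37 to -0.22 for Zic1, -1.06 to -0.43 for Prkcd, -0.66 to 0.13 for Calb2 and -0.29 to -0.05 for the median of the thalamus and habenula list. The genes counted were the 6 markers, the 3 genes of largest difference from each list and the 8 genes most like Tcf7l2. Among these the sign turned without vehicle 15, in the brightest probe set, for Calb2 (0.13), Chrna3 (0.0048), Zic5 (0.056) and Gabrg1 (0.11). Other named genes were not counted, and the sign also turned for Lhx9 (0.20), Ntng1 (0.18), Zic4 (0.070), Wfs1 (0.022) and Zbtb20 (-0.019). Ranges over mice left out were -0.21 to 0.0048 for Chrna3, -0.55 to 0.056 for Zic5 and -0.38 to 0.11 for Gabrg1. The dimmer set of Chrna3 kept its sign without vehicle 15 (-0.22). Without vehicle 15 and 16 the sign turned, among the counted genes, for Tac1 (0.10) and Gabrg1 (0.12). Penk then stood at -0.10 and Reln at 0.07. Outside the count the sign turned for Zic4 (0.050), Neurod6 (-0.062) and Zbtb20 (-0.17). Of the 8 genes most like Tcf7l2, 2 remained when vehicle 15 was left out and 3 when profiles were scaled to unit SD. Beyond the mice left out, the causes were not tested. With 4 mice a group and vehicle 15 so far from the others, the size of each difference is known poorly.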
